A study of Mus musculus with 10 samples.

Results

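The cortical area patterning genes described here are 9 transcription regulators, chosen by name from the deposited lists of 38803 gene symbols: Nr2f1, Nr2f2, Sp8, Lmo3, Lmo4, Etv1, Etv4, Etv5 and Meis2. All 9 were present in the lists and all 9 reached the minimum level for testing, at least 1 FPKM (fragments per kilobase of transcript, a level adjusted for its length and the library size) in at least 5 libraries, which 13522 genes reached. RNA of the mouse dorsal telencephalon at embryonic day 12 was sequenced from 5 controls, Rnu11WT/Flx::Emx1-cre+/-, and 5 mutants, Rnu11Flx/Flx::Emx1-Cre+/-, on the strain background C57/Bl6 - 129 SvJ. Rnu11 encodes the U11 small nuclear RNA, which recognises the start of the rare minor introns. Emx1-Cre acts in progenitors of the dorsal telencephalon and their descendants, so vessels, meninges and ventral cells of a dissection keep intact Rnu11. The controls carry 1 floxed copy and the same Cre, and none of the 10 libraries lacks one. Whether the libraries come from separate embryos is not stated, so p-values measure the spread between these libraries, which may in part be technical.

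Areas of the neocortex arise from graded levels of transcription factors in its progenitors. Fgf8 and Fgf17, secreted from the rostral midline, raise Sp8 and the Ets genes Etv1, Etv4 and Etv5 in rostral cortex. Nr2f1 and Nr2f2 are nuclear receptors that are high caudally and oppose the rostral programme, while Emx2 is high caudally and medially and Pax6 rostrally and laterally. Lmo3 and Lmo4 are LIM-only adaptors that bind no DNA themselves and compete for the Ldb cofactors of LIM-homeodomain factors, and Meis2 is a homeodomain cofactor that is also abundant in the ventral telencephalon. A dissected dorsal telencephalon pools the whole gradient, so a bulk level reports neither a gradient's shape nor its position, and fewer cells of a type cannot be told apart from less RNA per cell.

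The check of the genotype, the depth and the tissue came first. Rnu11 ranged from 1913 to 2817 FPKM in controls and, without overlap, from 473 to 1421 FPKM in mutants. Mutants 4 and 5 held more of it, at 1344 and 1421 FPKM, than mutants 1 to 3, at 473 to 712 FPKM. Fragment numbers are not in the files, and rough estimates from the smallest steps of the values ran from 9710000 to 21200000 fragments, with control 4 the shallowest. Markers of dorsal identity were present in every library: Emx1 ranged from 13.6 to 24.7 FPKM, Neurog2 from 12.2 to 27.6 FPKM and Tbr1 from 7.20 to 17.9 FPKM, with control 4 the lowest for Emx1 and Neurog2. Control 5, mutant 4 and mutant 5 formed a second library set, defined by the U12 small nuclear RNA Rnu12 at 487 to 688 FPKM against 5.91 to 33.8 FPKM in the other 7 libraries, which form the first set. Control 4 stood apart in ventral telencephalon markers. The 16 ventral markers summed to 97.5 FPKM in control 4 and to 8.42 to 38.0 FPKM in the other 9 libraries, and 15 of the 16 were highest in control 4, with Dlx1, a regulator of ventral neurons, at 17.8 FPKM there and 0.601 to 6.65 FPKM elsewhere.

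No area patterning gene passed the test between mutants and controls (limma, adjusted p under 0.05 over 13522 genes, 0 of 9, where 0.155% of all tested genes passed, 0.0887% as higher and 0.0666% as lower in mutants). At an unadjusted p under 0.05 the count was 1 of 9, Lmo3, which was higher in mutants, against 8.76% of all tested genes in either direction and 7.69% with mutants higher. The exact permutation test over the 252 splits of 5 against 5 likewise gave 1 of 9 unadjusted, against 8.67%, and 0 genes of the whole table after adjustment. No member's groups were free of overlap, which held for 1.52% of tested genes with mutants higher and 0.377% with mutants lower. The median log2 difference, mutant minus control on the log2(FPKM + 1) scale, was 0.10 over the 9 members and 0.11 over all tested genes, and 8 of 9 lay above 0, as did 75.7% of all tested genes. Rescaling the libraries by their median ratio, which moved the median of all tested genes to 0.01 and that of the members to -0.01, left 4 of 9 above 0, and quantile normalization left 6 of 9.

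**Figure D1:**
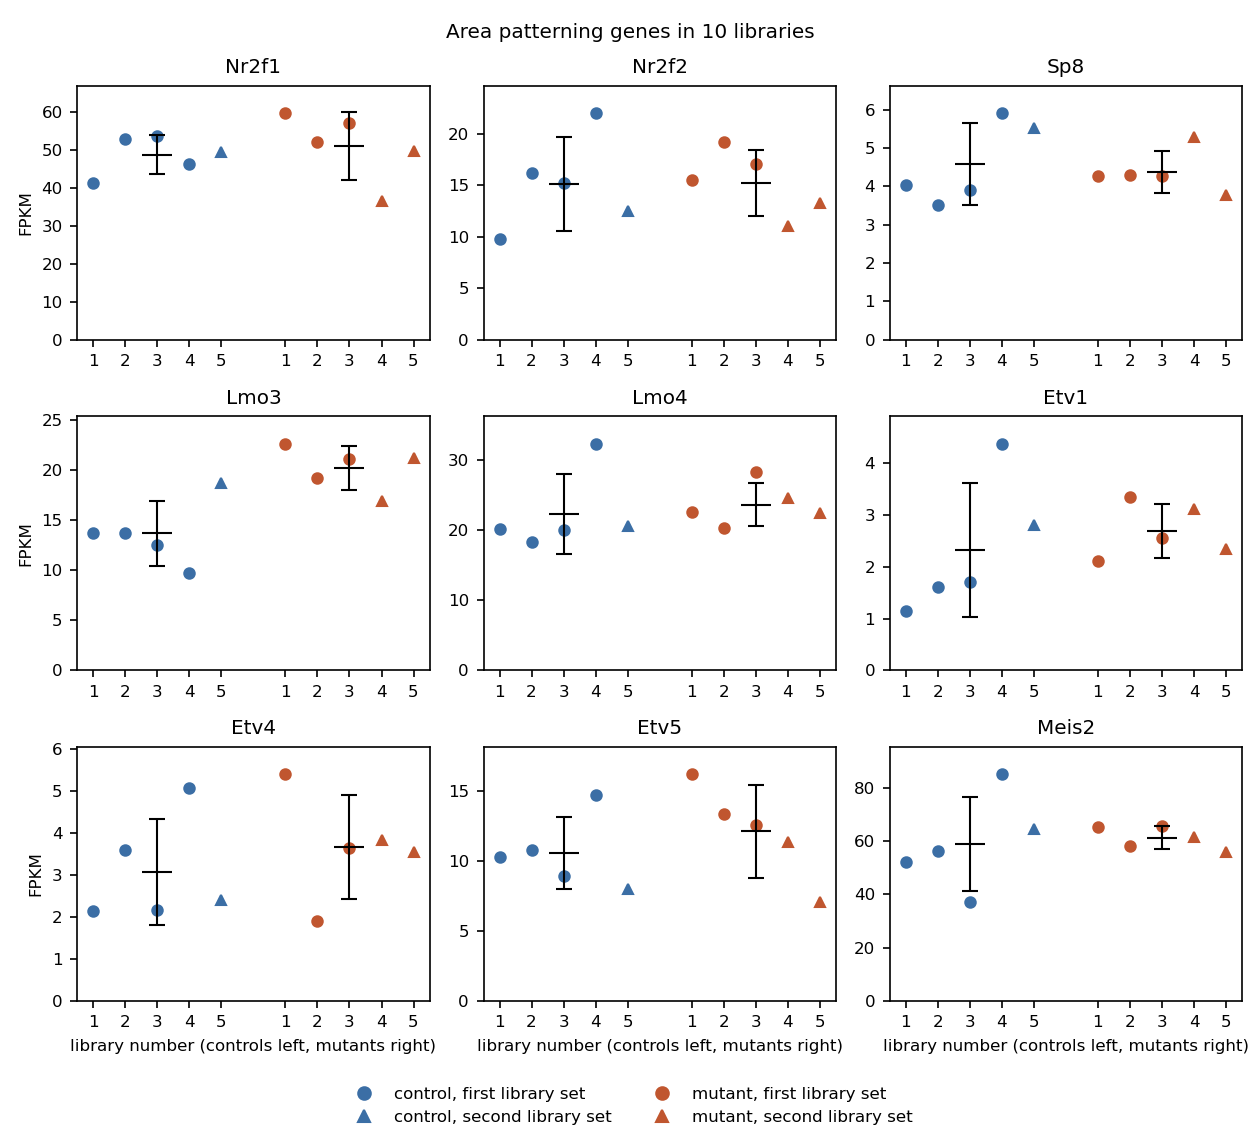
FPKM of each of the 9 genes in each library, controls 1 to 5 on the left and mutants 1 to 5 on the right of each panel, circles for the first and triangles for the second library set, with the group mean and SD (n = 5) as black bars. Lmo3 is the gene whose mutants (16.9 to 22.6 FPKM) lie mostly above its controls (9.72 to 18.7 FPKM), and control 4 is the highest library for Nr2f2, Sp8, Lmo4, Etv1 and Meis2.

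The members spanned a wide range of levels. FPKM is scaled to transcript length, but the annotation that set the lengths is not stated, so the order between genes is approximate. Over all 10 libraries Meis2 averaged 60.2 FPKM, followed by Nr2f1, Lmo4 at 23.0, Lmo3 at 16.9, Nr2f2 at 15.2, Etv5 at 11.3, Sp8 at 4.48, Etv4 at 3.37 and Etv1 at 2.51 FPKM. Nr2f1 exceeded Lmo4, and Etv5 exceeded Sp8, in 10 of 10 libraries. The order of Nr2f2 and Etv5 held in 7 of 10 libraries. That of Lmo3 and Nr2f2 also held in 7 of 10, but these were 5 of 5 mutants and 2 of 5 controls, and in controls the mean of Nr2f2 (15.1 FPKM) was above that of Lmo3 (13.7 FPKM). Meis2 lay at the 90.7th percentile of the mean levels of tested genes and Etv1 at the 17.6th percentile. One fragment from 2000 bases of transcript was worth 0.0236 to 0.0515 FPKM at the estimated depths, well below the lowest member value.

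Lmo3 showed the largest difference of the 9. This adaptor (ENSMUSG00000030226.12, chromosome 6, 138362918 to 138581968, minus strand) measured 13.7, 13.7, 12.5, 9.72 and 18.7 FPKM in controls 1 to 5 and 22.6, 19.2, 21.1, 16.9 and 21.2 FPKM in mutants 1 to 5. Each mutant lay above controls 1 to 4, and control 5 lay above mutant 4, so the groups overlapped by that pair of libraries. The means were 13.7 ± 3.26 FPKM in controls against 20.2 ± 2.21 in mutants (SD, n = 5), 148% of control. On the log2 scale the difference was 0.55 (SE 0.15, 95% interval 0.23 to 0.88; limma, adjusted p = 0.291), and 0.45 after subtracting the median of all genes. The exact two-sided permutation test gave p = 0.0159, and 0.45 after adjustment over all tested genes. Of all tested genes 97.5% had a smaller signed difference, and Lmo3 did not pass the threshold.

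The pair of libraries that overlapped for Lmo3, control 5 and mutant 4, both belong to the second set. Its mutants, 4 and 5, also held the most Rnu11 among mutants. Other RNAs than Rnu12 separated the sets without overlap as well, with Rny1 higher and Rpph1 lower in the second. Remaining Rnu11 and library set thus split the mutants in the same way and cannot be told apart. Whether the remaining Rnu11 bears on the Lmo3 difference was not tested. In the first set the 4 controls averaged 12.4 ± 1.88 FPKM for Lmo3 and the 3 mutants 20.99 ± 1.72 FPKM (SD), without overlap, which held in that set for 16.7% of tested genes with mutants higher and 1.44% with mutants lower. The log2 difference there was 0.72 and passed (limma, adjusted p = 0.0497), where 0.747% of tested genes passed, 0.606% as higher. In the second set the single control was at 18.7 FPKM and the mutants at 16.9 and 21.2 FPKM, a log2 difference of 0.02 with no spread among controls. The difference between the sets was -0.71 on the log2 scale (limma interaction of genotype and set, adjusted p = 0.548). Lmo3 was among the 9.07% of tested genes whose interaction had an unadjusted p under 0.05, and the other 8 members were not. Without control 5 the log2 difference was 0.67 and passed (limma, adjusted p = 0.0438, with 0.503% of tested genes passing as higher). In the 3 controls and 3 mutants left without control 4, control 5, mutant 4 and mutant 5, an alternative chosen after seeing the data, Lmo3 and Etv5 passed, with 14.3% of tested genes passing as higher, and none of the 9 members did once those libraries were rescaled by their median ratio, where 0.651% passed. With library set as a term it was 0.52 (limma, adjusted p = 0.16), and over the 24 alternatives to the reported fit it ran from 0.39 to 0.72, with adjusted p from 0.0117 to 0.902.

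Markers of early excitatory neurons lay above the median of all genes beside Lmo3. This held for 16 of 16 tested markers, and they summed to 379 to 559 FPKM in controls and 466 to 695 FPKM in mutants. None passed the threshold (limma, 0 of 16, with 6 at an unadjusted p under 0.05). Of all tested genes 8.76% had such an unadjusted p, 7.69% with mutants higher. Snap25, a protein of synaptic vesicle release, lay at a log2 difference of 0.64 (limma, adjusted p = 0.225). It passed with library set as a term (limma, adjusted p = 0.0232, where 0.547% of tested genes passed). It also passed in the first set (limma, adjusted p = 0.0333, where 0.747% of tested genes passed). Gap43, a growth cone protein, lay at a log2 difference of 0.57 (limma, adjusted p = 0.333). Control 4, the lowest library for Lmo3, had the highest sum of these markers among controls, at 559 FPKM, which rested on genes of neurons in general such as Tubb3 (168 FPKM) and Dcx (95.05 FPKM). Neurod6 and Neurod2, factors of excitatory cortical neurons singled out after their values were seen, were lowest of all 10 libraries in control 4, at 9.24 FPKM against 45.5 to 113 FPKM and 6.21 FPKM against 10.4 to 30.5 FPKM. Tbr1 and Bcl11b, other transcription factors among these markers, went the other way. They were highest among controls in control 4, at 14.1 and 19.8 FPKM, and were also singled out after their values were seen.

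Markers of microglia and macrophages also lay above the median of all genes, 7 of 7 tested, with a median log2 difference of 0.58, and summed to 18.3 to 43.6 FPKM in controls and, in mutants, 26.7 to 88.9 FPKM. None passed between all 10 libraries (limma, 0 of 7, with 2 at an unadjusted p under 0.05, against 8.76% of all tested genes). Aif1, with the smallest p of these markers, lay at a log2 difference of 0.58 (limma, adjusted p = 0.553) and did not pass with library set as a term (limma, adjusted p = 0.173). C1qa, a complement gene, lay at 0.98 (limma, adjusted p = 0.563) and passed with library set as a term (limma, adjusted p = 0.0089, where 0.547% of tested genes passed). Other lists were shifted too. Their medians were 0.38 for erythroid cells, 0.25 for dorsal identity, 0.21 for mesenchyme, 0.19 for intermediate progenitors and 0.17 for endothelial cells, against 0.11 over all tested genes. Nearer or below it lay Cajal-Retzius cells (0.14), ventral telencephalon (0.12), radial glia (0.08) and cortical hem (0.02). Radial glia markers summed to 652.9 to 794.6 FPKM in controls and 795.3 to 833.0 FPKM in mutants. The part of any cell type in the Lmo3 difference was not tested.

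Lmo4, the other LIM-only member (ENSMUSG00000028266.17, chromosome 3, 144188530 to 144205220, minus strand), behaved unlike Lmo3 across libraries. It measured 20.1, 18.4, 20.0, 32.4 and 20.6 FPKM in controls 1 to 5 and 22.6, 20.3, 28.4, 24.6 and 22.4 FPKM in mutants 1 to 5. Control 4 was the highest of all 10 libraries for Lmo4, as it was for 19.7% of tested genes. It was the lowest of all 10 for Lmo3, as it was for 8.64% of tested genes. Mean levels were 22.3 ± 5.68 FPKM in controls against 23.7 ± 3.04 in mutants (SD, n = 5; log2 difference 0.10, SE 0.15, 95% interval -0.23 to 0.43; limma, adjusted p = 0.855). The other 4 controls spread little, at 19.8 ± 0.992 FPKM (SD, n = 4), and 4 of 5 mutants lay above all of them. Without control 4 the log2 difference was 0.24 (limma, adjusted p = 0.435). The difference was -0.01 after median ratio rescaling, so its sign depends on the scaling.

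The stretches just upstream of the transcription starts of Lmo3 and Lmo4 are shown because these adaptor genes took opposite extremes in control 4. Both are the 250 bases before a RefSeq start in GRCm38.p6, minus strand, written 5′ to 3′, with matches to GGGCGG, the Sp binding core, in capitals. The Lmo3 stretch is chr6:138581969-138582218 and that of Lmo4, the first of its 3 listed starts, is chr3:144205256-144205505.
Lmo3: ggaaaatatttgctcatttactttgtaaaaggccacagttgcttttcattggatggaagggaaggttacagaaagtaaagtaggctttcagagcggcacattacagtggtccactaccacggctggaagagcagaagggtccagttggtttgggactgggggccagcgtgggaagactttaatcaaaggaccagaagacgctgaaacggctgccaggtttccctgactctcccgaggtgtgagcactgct
Lmo4: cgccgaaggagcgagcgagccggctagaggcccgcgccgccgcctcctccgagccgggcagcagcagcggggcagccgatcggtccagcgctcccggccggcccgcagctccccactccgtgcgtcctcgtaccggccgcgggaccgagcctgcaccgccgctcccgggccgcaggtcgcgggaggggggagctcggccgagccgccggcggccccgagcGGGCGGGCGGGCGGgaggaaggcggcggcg
The Lmo3 stretch held 50.0% G and C and the Lmo4 stretch 82.4%, beside a median of 52.4% over 32851 such windows. Lmo4 held 3 overlapping matches to GGGCGG on either strand and Lmo3 held 0, and 32.7% of all windows held at least 1. No match was found in either stretch to the Ets core CCGGAA (12.0% of windows), the nuclear receptor half-site AGGTCA (14.02%) or the Meis core TGACAG (15.9%). The matches overlap one another within 1 run of bases, and they describe these letters only.

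Among the other Lmo genes and their partners, 0 of 6 tested passed (limma; 0 at an unadjusted p under 0.05), with a median log2 difference of 0.20. Lmo2, best known from blood and endothelial cells, had 10.8 ± 3.20 FPKM in controls against 13.9 ± 1.51 in mutants (SD, n = 5; limma, adjusted p = 0.574). Ldb2, a cofactor that LIM-only proteins bind, lay at a log2 difference of 0.22 (limma, adjusted p = 0.643).

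Nr2f1 and Nr2f2, the caudally high receptors, had nearly equal means in the groups. Nr2f1 (ENSMUSG00000069171.14, chromosome 13, 78188973 to 78199757, minus strand) measured 41.3, 52.8, 53.9, 46.4 and 49.5 FPKM in controls 1 to 5 and 59.8, 52.2, 57.1, 36.6 and 49.9 FPKM in mutants 1 to 5. Mutants held both the highest and the lowest library. The means were 48.8 ± 5.11 FPKM in controls against 51.1 ± 8.99 in mutants (SD, n = 5), a log2 difference of 0.05 with a 95% interval from -0.24 to 0.35 (limma, adjusted p = 0.927). In the first set it was 0.21 and in the second -0.21 (interaction, limma, adjusted p = 0.58).

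Nr2f2 (ENSMUSG00000030551.14, chromosome 7, 70351944 to 70366735, minus strand) varied more than Nr2f1. Its values were 9.76, 16.2, 15.2, 22.0 and 12.5 FPKM in controls 1 to 5 and 15.5, 19.2, 17.1, 11.1 and 13.3 FPKM in mutants 1 to 5. Controls spanned the whole range of the mutants, with control 4 the highest and control 1 the lowest. The means were 15.1 ± 4.58 and 15.2 ± 3.16 FPKM (SD, n = 5; log2 difference 0.03, 95% interval -0.40 to 0.46; limma, adjusted p = 0.974). Both signs turned negative after median ratio rescaling, to -0.06 for Nr2f1 and -0.08 for Nr2f2. Nr2f2 is also made by venous endothelium and mesenchyme: 11 endothelial markers summed to 42.2 to 70.0 FPKM in controls and 48.8 to 87.7 FPKM in mutants, and 11 markers of mesenchyme, meninges and pericytes to 73.3 to 166 and 90.6 to 200 FPKM. Control 4, highest for Nr2f2, was the lowest library for both sums. The part of these cells in the Nr2f2 levels was not tested. Exons of both genes overlap an RNA on the opposite strand, by 123 bases for Nr2f1 and 643 bases for Nr2f2 in GENCODE M21, and as nothing states whether strand was used in counting, these levels are less certain.

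Sp8, the rostrally high zinc finger factor (ENSMUSG00000048562.7, chromosome 12, 118846329 to 118852576, plus strand), was the member with a mean lower in mutants. It measured 4.04, 3.50, 3.91, 5.91 and 5.53 FPKM in controls 1 to 5 and 4.27, 4.29, 4.27, 5.29 and 3.77 FPKM in mutants 1 to 5. Controls 4 and 5 were the highest libraries, followed by mutant 4. The means were 4.58 ± 1.07 and 4.38 ± 0.555 FPKM (SD, n = 5; log2 difference -0.04, 95% interval -0.35 to 0.27; limma, adjusted p = 0.953). Without control 4 the sign was positive, at 0.04.

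Of the COUP and Sp relatives fixed beside these genes 0 of 8 tested passed (limma; 1 at an unadjusted p under 0.05), with a median log2 difference of 0.03. Sp1, a ubiquitous zinc finger factor, lay at 11.4 ± 2.25 FPKM in controls against 15.0 ± 0.593 in mutants (SD, n = 5; limma, adjusted p = 0.364). Nr2c1, an orphan nuclear receptor, lay at a log2 difference of 0.28 (limma, adjusted p = 0.593). Sp9, the nearest relative of Sp8 and a ventral marker, stayed under the filter, with 0.781 FPKM in control 4 and 0.0184 to 0.325 FPKM elsewhere.

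Meis2 (ENSMUSG00000027210.20, chromosome 2, 115863064 to 116065839, minus strand) was the most abundant member. Its values were 52.0, 56.1, 37.0, 85.3 and 64.4 FPKM in controls 1 to 5 and 65.5, 58.1, 65.8, 61.6 and 55.9 FPKM in mutants 1 to 5. The mutants lay close together, inside the range of the controls, whose extremes were control 3 and control 4. The means were 59.0 ± 17.7 and 61.4 ± 4.38 FPKM (SD, n = 5; log2 difference 0.10, 95% interval -0.28 to 0.49; limma, adjusted p = 0.873). Without control 4 the log2 difference was 0.25 (limma, adjusted p = 0.523), after median ratio rescaling -0.01.

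Relatives and partners of Meis2 set control 4 apart more sharply than Meis2 itself. Meis1, its closest relative on the list, was at 12.0 FPKM in control 4 and 1.48 to 4.82 FPKM in the other 9 libraries, and Pbx3, a homeodomain partner of Meis proteins, at 45.1 FPKM against 7.79 to 14.5 FPKM. Both were singled out after their values were seen. Of 10 tested relatives and partners 0 passed between genotypes (limma; 1 at an unadjusted p under 0.05), with a median log2 difference of 0.09. Meis3 lay at 5.26 ± 0.681 FPKM in controls against 6.74 ± 0.695 in mutants (SD, n = 5; limma, adjusted p = 0.461), and Pknox1 at a log2 difference of 0.22 (limma, adjusted p = 0.585).

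The ventral marker sum was far higher in control 4 than in any other library, and 5 of 9 members were highest there, Nr2f2, Sp8, Lmo4, Etv1 and Meis2. Control 4 was the highest library for 19.7% of all tested genes. Etv4 and Etv5 were at their second highest in control 4, Nr2f1 ranked 8 of 10 and Lmo3 was at its lowest. Mutant 1 and mutant 4 followed control 4 in the ventral sum, at 38.0 and 28.6 FPKM, and the defining ventral genes Gsx1, Gsx2 and Nkx2-1 were all listed at 0 in control 1 and in mutant 5. The part of ventral tissue in the members' levels was not tested. Without control 4 the log2 difference of Nr2f2 was 0.17, and those of Etv1, Etv4, Etv5, Lmo4 and Meis2 were 0.24 to 0.41. Control 4 was the highest control for these 6 genes and for Sp8, which moved to 0.04, so leaving it out had to raise their differences. Lmo3 and Nr2f1 fell to 0.45 and 0.04, and the median of all tested genes rose from 0.11 to 0.13. Without control 4 none of the 9 members passed (limma). Leaving out another single library instead lowered differences of the fit over all 10 libraries: Etv1 to 0.078 without control 1, Etv4 to 0.079 and Etv5 to 0.059 without mutant 1, Lmo4 to 0.037 without mutant 3 and Meis2 to -0.046 without control 3.

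**Figure D2:**
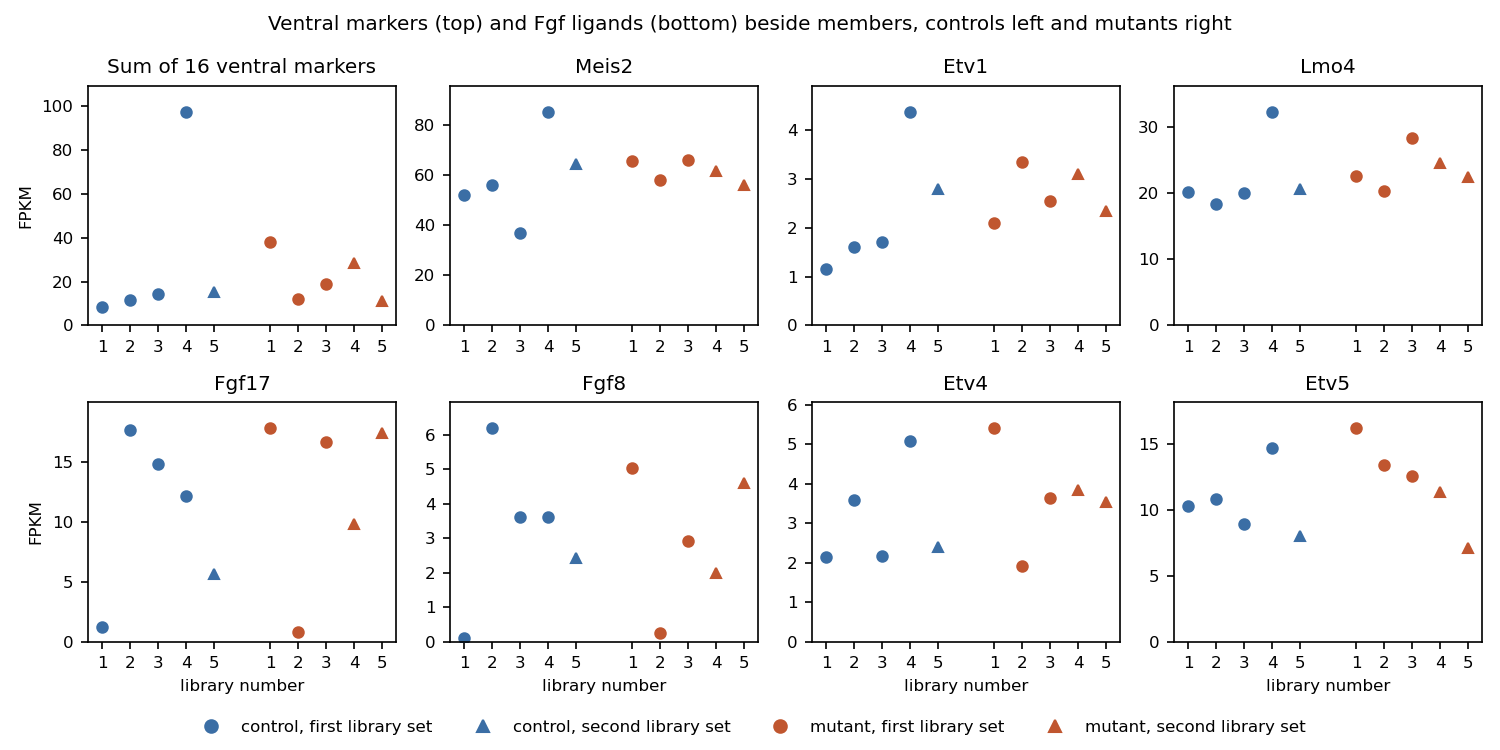
FPKM by library for the sum of 16 ventral telencephalon markers with Meis2, Etv1 and Lmo4 in the top row, and for Fgf17, Fgf8, Etv4 and Etv5 in the bottom row, controls left and mutants right. Control 4 is highest in every panel of the top row, and control 1 and mutant 2 are lowest for Fgf17 and Fgf8.

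Etv1, Etv4 and Etv5 form the Pea3 group of Ets factors, which cortical progenitors transcribe in response to Fgf. Etv1 (ENSMUSG00000004151.17, chromosome 12, 38779380 to 38870484, plus strand) measured 1.15, 1.62, 1.71, 4.38 and 2.81 FPKM in controls 1 to 5 and 2.11, 3.35, 2.55, 3.11 and 2.35 FPKM in mutants 1 to 5. Each mutant lay above controls 1 to 3 and below control 4. The means were 2.33 ± 1.30 and 2.69 ± 0.522 FPKM (SD, n = 5; log2 difference 0.22, 95% interval -0.27 to 0.70; limma, adjusted p = 0.791). Without control 4 the control mean was 1.82 ± 0.701 FPKM (SD, n = 4) and the log2 difference 0.41 (limma, adjusted p = 0.408).

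Etv4 (ENSMUSG00000017724.14, chromosome 11, 101769742 to 101785371, minus strand) measured 2.13, 3.59, 2.16, 5.07 and 2.39 FPKM in controls 1 to 5 and 5.41, 1.90, 3.64, 3.84 and 3.54 FPKM in mutants 1 to 5. Mutant 1 was the highest and mutant 2 the lowest library, so the mutants enclosed all controls. The means were 3.07 ± 1.27 and 3.67 ± 1.25 FPKM (SD, n = 5; log2 difference 0.20, 95% interval -0.30 to 0.70; limma, adjusted p = 0.811).

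Etv5 (ENSMUSG00000013089.15, chromosome 16, 22381309 to 22439719, minus strand) was the most abundant of the 3. Its values were 10.3, 10.8, 8.93, 14.7 and 8.03 FPKM in controls 1 to 5 and 16.2, 13.4, 12.6, 11.4 and 7.07 FPKM in mutants 1 to 5. The mutants again held both extremes. The means were 10.6 ± 2.58 and 12.1 ± 3.35 FPKM (SD, n = 5; log2 difference 0.17, 95% interval -0.27 to 0.61; limma, adjusted p = 0.825). In the first set the 3 mutants averaged 14.1 ± 1.91 FPKM and the 4 controls 11.2 ± 2.49 FPKM (SD), a log2 difference of 0.32 (limma, adjusted p = 0.317).

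**Figure D3:**
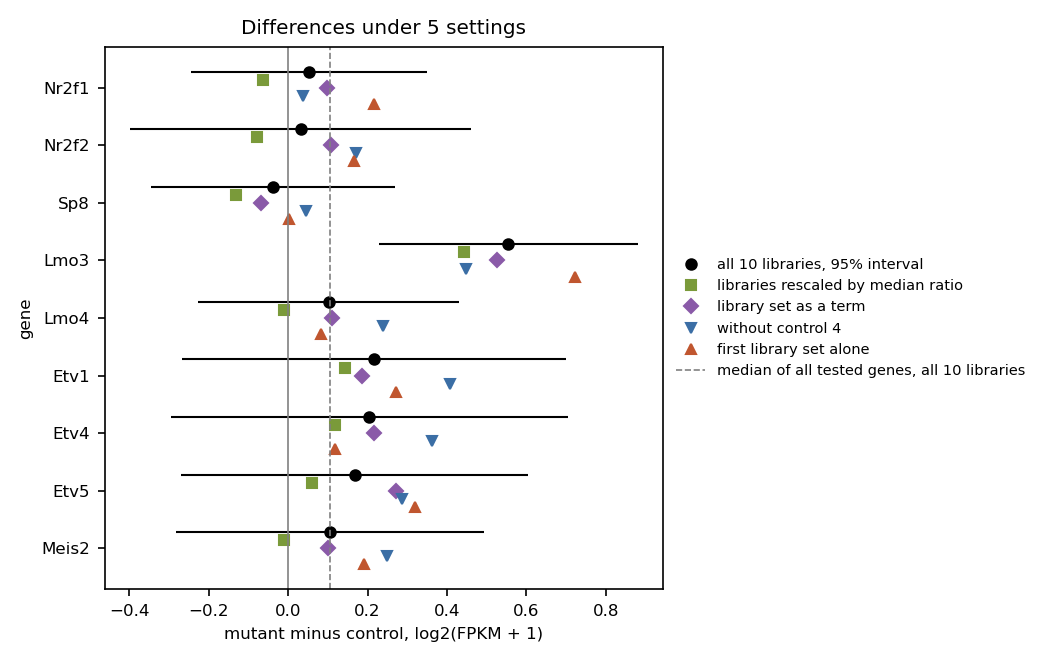
Mutant minus control on the log2(FPKM + 1) scale for each of the 9 genes, with the 95% interval of the fit over all 10 libraries as a line and the values of 4 alternative settings as further symbols; the dashed line is the median of all tested genes. The interval of Lmo3 (0.23 to 0.88) lies above 0, and those of the other 8 genes include 0.

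Rostral Fgf ligands varied between libraries of both genotypes. Fgf17 was at 1.21 FPKM in control 1 and 0.760 FPKM in mutant 2, and at 5.64 to 17.8 FPKM in the other 8 libraries. Fgf8, the organiser of the rostral midline, was at 0.0894 FPKM in control 1 and 0.236 FPKM in mutant 2, and at 2.00 to 6.20 FPKM in the others. The same libraries had the lowest Etv4 values, 2.13 FPKM in control 1 and 1.90 FPKM in mutant 2, although control 3, with 14.8 FPKM of Fgf17, was as low for Etv4 at 2.16 FPKM. Etv5 did not share this order: mutant 2 was the third highest library for Etv5, at 13.4 FPKM, and mutant 5, with 17.4 FPKM of Fgf17, the lowest at 7.07 FPKM. Whether the dissections differed in rostral midline tissue was not tested. Without control 1 and mutant 2, an alternative chosen after seeing the data, 0 of 9 members passed (limma), and Nr2f1 and Nr2f2 were at log2 differences of -0.02 and -0.19.

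Between genotypes the Fgf pathway showed no call. Of 8 ligands 4 were tested and 0 passed (limma; 0 at an unadjusted p under 0.05, median log2 difference 0.22). Fgf2, Fgf3, Fgf9 and Fgf10 stayed under the filter. Fgf18 lay at 0.948 ± 0.744 FPKM in controls against 1.42 ± 0.843 in mutants (SD, n = 5), and Fgf15, which is abundant in ventral progenitors, at 12.1 FPKM in control 4 and 0.760 to 4.19 FPKM elsewhere. Receptors and adaptors gave 0 of 9 (limma; 1 at an unadjusted p under 0.05, median 0.01). Frs3, a docking protein of Fgf receptors, lay at 1.22 ± 0.472 FPKM in controls against 2.26 ± 0.578 in mutants (SD, n = 5; limma, adjusted p = 0.357), and Gab1, an adaptor, at a log2 difference of 0.10.

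Feedback targets of Fgf gave 0 of 10 (limma; 1 at an unadjusted p under 0.05, median log2 difference 0.07). Fgfbp3, which encodes an Fgf-binding protein, measured 10.8, 10.9, 9.45, 13.4 and 13.4 FPKM in controls 1 to 5 and 14.6, 17.5, 14.9, 19.8 and 14.9 FPKM in mutants 1 to 5. Its groups did not overlap, as for 1.52% of tested genes, and the log2 difference was 0.46 (SE 0.13; limma, adjusted p = 0.301). Dusp6, a phosphatase of the kinase Erk that Fgf induces, lay at 9.16 ± 0.517 FPKM in controls against 10.2 ± 2.03 in mutants (SD, n = 5; limma, adjusted p = 0.817), with its lowest value, 6.85 FPKM, in mutant 2. Of the other Ets genes 0 of 13 tested passed (limma; 1 at an unadjusted p under 0.05, median 0.15), with Elf2 at a log2 difference of -0.25 (adjusted p = 0.499) and Erg, an endothelial Ets gene, at 0.31 (adjusted p = 0.593).

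Other regulators of area identity gave 0 calls among 14 tested (limma, median log2 difference 0.19), with 3 at an unadjusted p under 0.05, against 8.76% of all tested genes. Bhlhe22, a factor of postmitotic area identity, lay at 4.27 ± 1.78 FPKM in controls against 7.20 ± 2.35 in mutants (SD, n = 5; limma, adjusted p = 0.528), with its lowest value, 1.34 FPKM, in control 4. Pax6 lay at 25.2 ± 4.63 and 31.0 ± 3.45 FPKM (limma, adjusted p = 0.561). Genes expressed in graded or areal patterns downstream gave 0 of 14 (limma; 1 at an unadjusted p under 0.05, median 0.18). Among them Epha7, a receptor of axon guidance, lay at 8.20 ± 2.45 and 10.7 ± 1.22 FPKM (SD, n = 5; limma, adjusted p = 0.565) and Id2, an inhibitor of basic helix-loop-helix factors, at a log2 difference of 0.26 (adjusted p = 0.594).

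Ratios within a library do not depend on how that library is scaled, and they are given as a description. The log2 ratio of Nr2f1 to Sp8, caudal over rostral, was 3.44 ± 0.40 in the controls against 3.53 ± 0.42 in the mutants (SD, n = 5), with overlapping ranges of 2.97 to 3.92 and 2.79 to 3.81. For Nr2f1 to Etv5 it was 2.23 ± 0.41 in controls and 2.11 ± 0.44 in mutants, again overlapping. The ratio of Lmo3 to Lmo4 was -0.71 ± 0.61 in controls and -0.22 ± 0.24 in mutants, a difference of 0.48, with control 4 at -1.74 and control 5 at -0.14, inside the range of the mutants (-0.54 to 0.00). The ratio of Pax6 to Emx2 followed the library sets: it was 1.20 to 1.62 in the 7 libraries of the first set and 0.39 to 0.87 in the 3 libraries of the second, and controls averaged 1.36 ± 0.36 and mutants 1.07 ± 0.45.

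**Figure D4:**
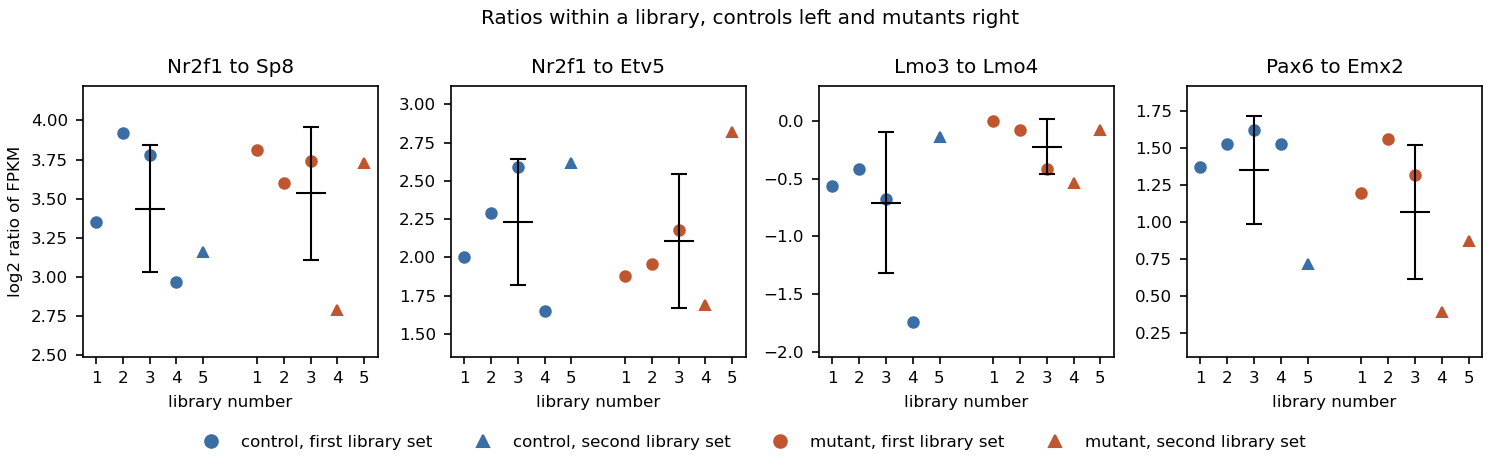
Log2 ratio of FPKM values within each library for 4 pairs of genes, controls left and mutants right, with the group mean and SD (n = 5) as black bars. The groups overlap in all 4 panels, control 4 is lowest for Lmo3 to Lmo4 at -1.74, and the 3 triangles of the second set are lowest for Pax6 to Emx2.

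Profiles over the 10 libraries were compared after centring each gene within its genotype group and scaling it to unit spread, so that 0 means identical profiles. The median distance of the 10682 protein-coding genes compared with a member was 1.09 to 1.41. A search over so many genes in 10 libraries yields small distances by itself, so the pairs are a description only. Control 4 was the highest library for Nr2f2, Sp8, Lmo4, Etv1 and Meis2, and this shared peak enters their distances. Among the members Sp8 and Etv1 were nearest to each other, at 0.598, followed by Lmo4 and Meis2 at 0.788. The nearest other genes were Pcyox1 (0.117) and Rmdn3 (0.225) for Sp8, Stmn4 (0.211) and Cxxc5 (0.274) for Etv1, Cog6 (0.272) and Phc1 (0.294) for Meis2, and Eefsec (0.282) and Ebf1 (0.347) for Lmo4. Nr2f2 was nearest to Nr2e1 (0.277), which encodes the nuclear receptor Tlx of neural progenitors, and Zfp444 (0.328). Lmo3 was nearest to Prcp (0.265) and Ptgr2 (0.318), Nr2f1 to Slc35f5 (0.293) and Rasgrp2 (0.473), Etv5 to Fbxo31 (0.275) and Tspan18 (0.281), and Etv4 to Ttc12 (0.424) and Zic4 (0.479). Zic4 encodes a zinc finger factor, and Ebf1 is 1 of the 16 ventral markers and was highest in control 4, at 3.86 FPKM.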

How the data were processed

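Per the labels' protocols, RNA was extracted with Trizol and sequenced as stranded total RNA depleted of ribosomal RNA. The submitters' processing notes name HISAT2 and GRCm38 (mm10); no source states the quantifier, its annotation or whether strand was used. The authors deposited 1 list of FPKM values per library, 38803 symbols each, without counts, which leaves counting error unknown. The log2(FPKM + 1) values entered limma 3.58.1 (R 4.3.3, trend and robust moderation, genotype as the single term), with Benjamini-Hochberg adjustment over the 13522 genes that reached 1 FPKM in 5 or more libraries and a threshold of 0.05. Fold changes on this scale understate those of low genes. Exact two-sided permutation tests ran over all 252 splits, with 0.00794 the smallest possible p. Scripts were checked on simulated data. Descriptions and plots used Python 3.11.15, pandas 2.3.3 and matplotlib 3.10.9.

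Gene models are from GENCODE M21, to which 35655 symbols and all 9 members matched by name; upstream sequences are RefSeq's in GRCm38.p6. The members and lists were chosen with earlier results of these data known, and the library sets, split at 100 FPKM of Rnu12, come from them too. In each list the named genes were those past the threshold or, where none passed, the 2 with the smallest p; Emx1, Neurog2 and Tbr1 as dorsal markers, and the genes named as examples of a sum, were chosen after their values were seen, and lists given by counts or sums alone name no gene. For likeness the 2 nearest protein-coding genes per member were named, leaving out predicted genes. The alternatives were other pseudocounts, filters, scalings and moderation, the library set as a term or the first set alone, a replicate block, and leaving out each library.

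Other cell type lists gave 0 calls between genotypes over all 10 libraries (limma, genotype alone): cortical hem and choroid plexus 0 of 15, radial glia 0 of 12, intermediate progenitors 0 of 8, Cajal-Retzius cells 0 of 8, endothelial cells 0 of 11, mesenchyme with meninges and pericytes 0 of 9, microglia and macrophages 0 of 7, erythroid cells 0 of 7 and ventral telencephalon 0 of 3, with 0, 2, 2, 0, 0, 0, 2, 0 and 0 genes at an unadjusted p under 0.05 in that order. The share of all tested genes at that unadjusted p was 8.76%.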

Additional observations from a re-analysis of the deposited data

Results flagged for a closer look

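Lmo4 in control 4, at 32.4 FPKM, lay far above the other 4 controls (18.4 to 20.6 FPKM): its gap to the next control was 0.838 of the range of the group, where 0.71 is the limit for 5 samples. Of 18 groups of 5 checked (9 genes, both genotypes) this was the 1 that exceeded it, and chance alone gives about 1 in 20.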

How the results depend on the processing

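The count of members past the threshold was 0 in the reported fit and in every alternative except 3: it was 1 (Lmo3) in the first set alone and without control 5, and 2 (Lmo3 and Etv5) without control 4, control 5, mutant 4 and mutant 5, an alternative chosen after seeing the data in which 14.3% of all tested genes passed as higher and the members' median was 0.335. With median ratio rescaling in those 6 libraries the count was 0, the median 0.13 and 0.651% of genes passed as higher. Leaving out each library in turn gave 0 to 1 members past the threshold. The 21 genes called over the whole table became 2 without a filter, 33 after median ratio rescaling, 35 after quantile normalization, 74 with library set as a term, 101 in the first set, 11 without trend and robust moderation and 2 to 79 when each library was left out. With alternatives chosen after seeing the data they became 91 with rescaling and set together, 1 without control 1 and mutant 2, 2023 in the 6 libraries and 195 in those with rescaling. The causes were not tested.

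Of 216 member values under 24 alternatives 22 had the opposite sign, none of them past the threshold. By median ratio rescaling these were Nr2f1 at -0.062, Nr2f2 at -0.078, Lmo4 at -0.011 and Meis2 at -0.01. By quantile normalization they were Nr2f1 at -0.009 and Nr2f2 at -0.06, and by rescaling with set as a term Nr2f1 at -0.003. Sp8 was at 0.003 in the first set and 0.133 in the 6 libraries, where Nr2f1 with rescaling was at -0.039. Without control 1 and mutant 2 Nr2f1 was at -0.016 and Nr2f2 at -0.187. Leaving out each library gave ranges of -0.007 to 0.166 for Nr2f1, -0.103 to 0.171 for Nr2f2, -0.11 to 0.044 for Sp8 and -0.046 to 0.249 for Meis2. Lmo3, Etv1, Etv4 and Etv5 kept a positive sign in all 24, with ranges on leaving out each library of 0.448 to 0.668, 0.078 to 0.408, 0.079 to 0.365 and 0.059 to 0.333, and Lmo4 ranged from 0.037 to 0.238.

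With the replicate number as a block 0 members and 14 genes passed, and Lmo3 was at an adjusted p of 0.167 (limma). Equal numbers are not said to pair libraries, so the numbers were not taken as pairs. Deviations of same-numbered libraries correlated at 0.08, 0.15, 0.24, -0.11 and 0.52 for numbers 1 to 5. Of the 5 mutants, each compared with 5 controls, 3 were closest to their own number, which does not decide whether libraries were paired. Without fragment counts, the counting error of the low members Etv1, Etv4 and Sp8 cannot be separated from the spread between libraries.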

Other observations

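The library sets differed in several area genes outside the 9 members, described here as values. Emx2, which favours caudal and medial fates, was at 19.6 to 25.02 FPKM in control 5, mutant 4 and mutant 5 and at 7.13 to 12.0 FPKM in the other 7 libraries. Pax6, Lhx2, Dmrta1 and Hes5, other area regulators, were also higher in the second set without overlap, as were 15.5% of all tested genes. None of the 9 members was free of overlap between the sets. Among the graded area markers Crym, a thyroid hormone binding protein, and Rorb, an orphan nuclear receptor, were lower in the second set without overlap, as were 6.28% of all tested genes. The sets were defined from the data by Rnu12 and are not the study's groups, and the cause of the difference was not tested.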
